A study of Mus musculus with 8 samples.

Results

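The 8 genes described here, Hmgcs1, Idi1, Fdps, Fdft1, Sqle, Lss, Cyp51 and Dhcr7, encode enzymes of cholesterol synthesis. They were taken as a list of names from the 21887 protein-coding genes of the mouse genome annotation, and each was examined at its gene ends, in its body and in the 10 kb on both sides. ChIP-seq, the sequencing of DNA that comes down with an antibody to a chromatin protein, had mapped the remodelers Chd7 and Chd8 in cells positive for O4, a surface antigen of the oligodendrocyte lineage. The cells were sorted with magnetic beads from the cortex of wild-type mice at postnatal day 7, and the labels call them OPCs (oligodendrocyte precursor cells). Corpus callosum is named beside cortex as the tissue, and no group carried a mutation or a treatment. There were 8 libraries: Chd7 with 2 replicates, Chd8 with 1 library, 2 mocks made with rabbit IgG, and 3 inputs (chromatin without an antibody). Chd7 replicate 1 had a mock and an input of its own, Chd7 replicate 2 and Chd8 shared a mock, and each of those ChIPs had its own input, by the titles. The header lines of the deposited lists number Chd7 replicate 2 as 3 and Chd8 as 2, so which of inputs 2 and 3 belongs to which ChIP is uncertain, and results that use this match are given both ways. The sources used here do not say whether replicates came from separate animals, and Chd8 had no replicate, so no error can be given for any Chd8 value.

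Cholesterol is built from acetyl-CoA through mevalonate, isoprenoid diphosphates, squalene and lanosterol. The sterol-sensing transcription factor SREBP-2, encoded by Srebf2, is the best known activator of these genes and binds sterol regulatory elements near their starts. Myelin is rich in cholesterol, and because lipoprotein cholesterol hardly crosses the blood-brain barrier, it is made within the brain, in large part by oligodendrocytes. Chd7 and Chd8 are ATP-dependent remodelers of the CHD family that move nucleosomes at promoters and enhancers.

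The files hold peaks, not reads, and sequencing depth is unknown. The lists held 5282 and 6292 peaks for Chd7 replicates 1 and 2, 18415 for Chd8, 89 and 98 for the mocks and 91628 to 178478 for the inputs. Each peak has a fold, the enrichment over the local background of the authors' peak caller, and a −log10 q. Both are the authors' own values, and folds were ranked within a library and not compared between libraries. As a check of the cell label, Chd8 had a peak at an end of 5 of 6 oligodendrocyte lineage markers (all but Cspg4), 2 of 4 neuron, 1 of 4 astrocyte, 1 of 4 microglia and 0 of 4 endothelial markers, beside 41.0% of all protein-coding genes. Input 3 had a peak at 4 of 6, 4 of 4, 2 of 4, 1 of 4 and 3 of 4 of the same lists, beside 45.2% of all genes. Input 1 had 0, 2, 1, 0 and 1 of them (21.9% of all genes), and input 2 had 0, 1, 0, 0 and 2 (28.4%). Chd7 replicate 1 had 1, 0, 0, 0 and 0 (10.4%), and Chd7 replicate 2 had 4, 1, 0, 0 and 0 (17.0%). Several of these counts lie near those shares, and peaks do not measure expression.

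Chd8 was found at an end of 7 of the 8 enzymes and Chd7 in both libraries at 3, Hmgcs1, Idi1 and Cyp51. A gene end was either boundary of the gene within 1 kb, and Chd7 counted in both libraries where peaks of both overlapped by at least 1 bp. Of all protein-coding genes, 41.0% had Chd8 and 4.83% had Chd7 in both libraries at an end. Chd7 replicate 1 alone had peaks at 4 of the 8 (10.4% of all genes), the above 3 and Dhcr7, and replicate 2 alone at the same 3 (17.0% of all genes). The mocks had none at the 8 genes, at their ends or in the 10 kb around them (0.0183% and 0.0137% of all genes at an end). Inputs 1, 2 and 3 had peaks at an end of 2, 3 and 6 of the 8 (21.9%, 28.4% and 45.2% of all genes), and at least 1 input did so at 6 (55.1%). Fdft1 was the only member without a gene-end peak in any list. A −log10 q of at least 3 left Chd7 in both libraries at 0 of the 8 ends (0.0685% of all genes) and Chd8 at 4 (24.7%). The inputs were left at 0, but their share of all genes at that setting was not computed, so this count has no background beside it. A reciprocal overlap of 50% between the Chd7 peaks left Hmgcs1 alone (1.72%).

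The bases before the starts of the genes where Chd7 was found are shown because ChIP peaks lay over or beside them. Chd8 covered all of each window shown. Chd7 replicate 1 covered 100%, 86% and 0% of the windows of Hmgcs1, Idi1 and Cyp51 and 42.8% and 0% of those of Dhcr7, and replicate 2 covered 100%, 16% and 100% of the first 3 and 0% of those of Dhcr7. A further annotated start of Dhcr7, at 143823399, is not shown. Starts and strands came from RefSeq (GRCm38.p6), in which Hmgcs1, Idi1, Lss, Cyp51 and Dhcr7 were matched (5 of 8). Each run is 250 bases long, is read 5′ to 3′ along the gene and ends just before the start. Capitals mark matches, on either strand, to TCACNCCAC (sterol regulatory element), CCAAT (the box bound by NF-Y) or GGGCGG (the GC box, bound by Sp1).
Hmgcs1, chr13:119690101-119690350, plus strand: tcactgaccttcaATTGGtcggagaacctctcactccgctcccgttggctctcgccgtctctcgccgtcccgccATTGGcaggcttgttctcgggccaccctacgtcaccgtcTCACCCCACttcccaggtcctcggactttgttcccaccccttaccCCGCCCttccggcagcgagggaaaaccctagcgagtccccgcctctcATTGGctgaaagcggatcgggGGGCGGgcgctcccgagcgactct
Idi1, chr13:8885356-8885605, plus strand: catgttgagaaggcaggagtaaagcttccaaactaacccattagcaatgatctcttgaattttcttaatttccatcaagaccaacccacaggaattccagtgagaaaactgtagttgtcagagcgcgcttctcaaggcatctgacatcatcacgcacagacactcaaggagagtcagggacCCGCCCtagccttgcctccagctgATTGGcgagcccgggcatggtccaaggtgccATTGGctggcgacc
Cyp51, chr5:4104698-4104947, minus strand: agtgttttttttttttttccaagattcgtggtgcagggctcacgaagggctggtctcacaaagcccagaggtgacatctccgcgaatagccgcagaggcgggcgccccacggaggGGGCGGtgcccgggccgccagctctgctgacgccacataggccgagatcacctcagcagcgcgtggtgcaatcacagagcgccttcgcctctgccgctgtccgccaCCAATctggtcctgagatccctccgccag
Dhcr7, start at the gene boundary, chr7:143822917-143823166, plus strand: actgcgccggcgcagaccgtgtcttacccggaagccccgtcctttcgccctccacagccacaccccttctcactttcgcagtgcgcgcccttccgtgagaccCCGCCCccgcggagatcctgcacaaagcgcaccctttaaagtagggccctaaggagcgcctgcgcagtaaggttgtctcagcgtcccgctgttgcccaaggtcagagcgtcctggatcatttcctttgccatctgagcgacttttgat
Dhcr7, start inside the gene, chr7:143829964-143830213, plus strand: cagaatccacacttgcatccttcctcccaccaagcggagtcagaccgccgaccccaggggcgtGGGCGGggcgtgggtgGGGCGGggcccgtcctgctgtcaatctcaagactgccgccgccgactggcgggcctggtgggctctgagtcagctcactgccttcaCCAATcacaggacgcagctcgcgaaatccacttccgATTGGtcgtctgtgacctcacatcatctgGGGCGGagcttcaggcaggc

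Hmgcs1 was the only matched member whose window held TCACNCCAC, as TCACCCCAC at −137 to −129 from its start. Of the 32851 such windows in the annotation, 1.05% held a match. These windows belong to 27025 genes, more than the 21887 protein-coding genes, so they include genes of other kinds. Only this string was searched, so other forms of the sterol element may lie in the windows of the other members. Hmgcs1 also had 3 CCAAT boxes and 2 GC boxes. A CCAAT box was held by 33.8% and a GC box by 32.7% of all windows, some of which overlap each other. Idi1 had 2 CCAAT boxes and 1 GC box, Cyp51 had 1 of each, Lss had 1 CCAAT box and 2 GC boxes, and the boundary start of Dhcr7 had 1 GC box. None of the matches overlapped another, and a match is a description of letters, not a measured binding site. The windows of Hmgcs1, Cyp51, Lss and the boundary start of Dhcr7 held 23, 20, 28 and 21 CpG dinucleotides, whereas that of Idi1 held 7. The median was 6 over all windows, 16 over windows of genes with Chd8 at an end and 19 over windows of genes with Chd7 in both libraries there. The Chd8 and Chd7 medians cover protein-coding genes only, so they and the median over all windows come from unlike sets of genes.

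**Figure D1:**
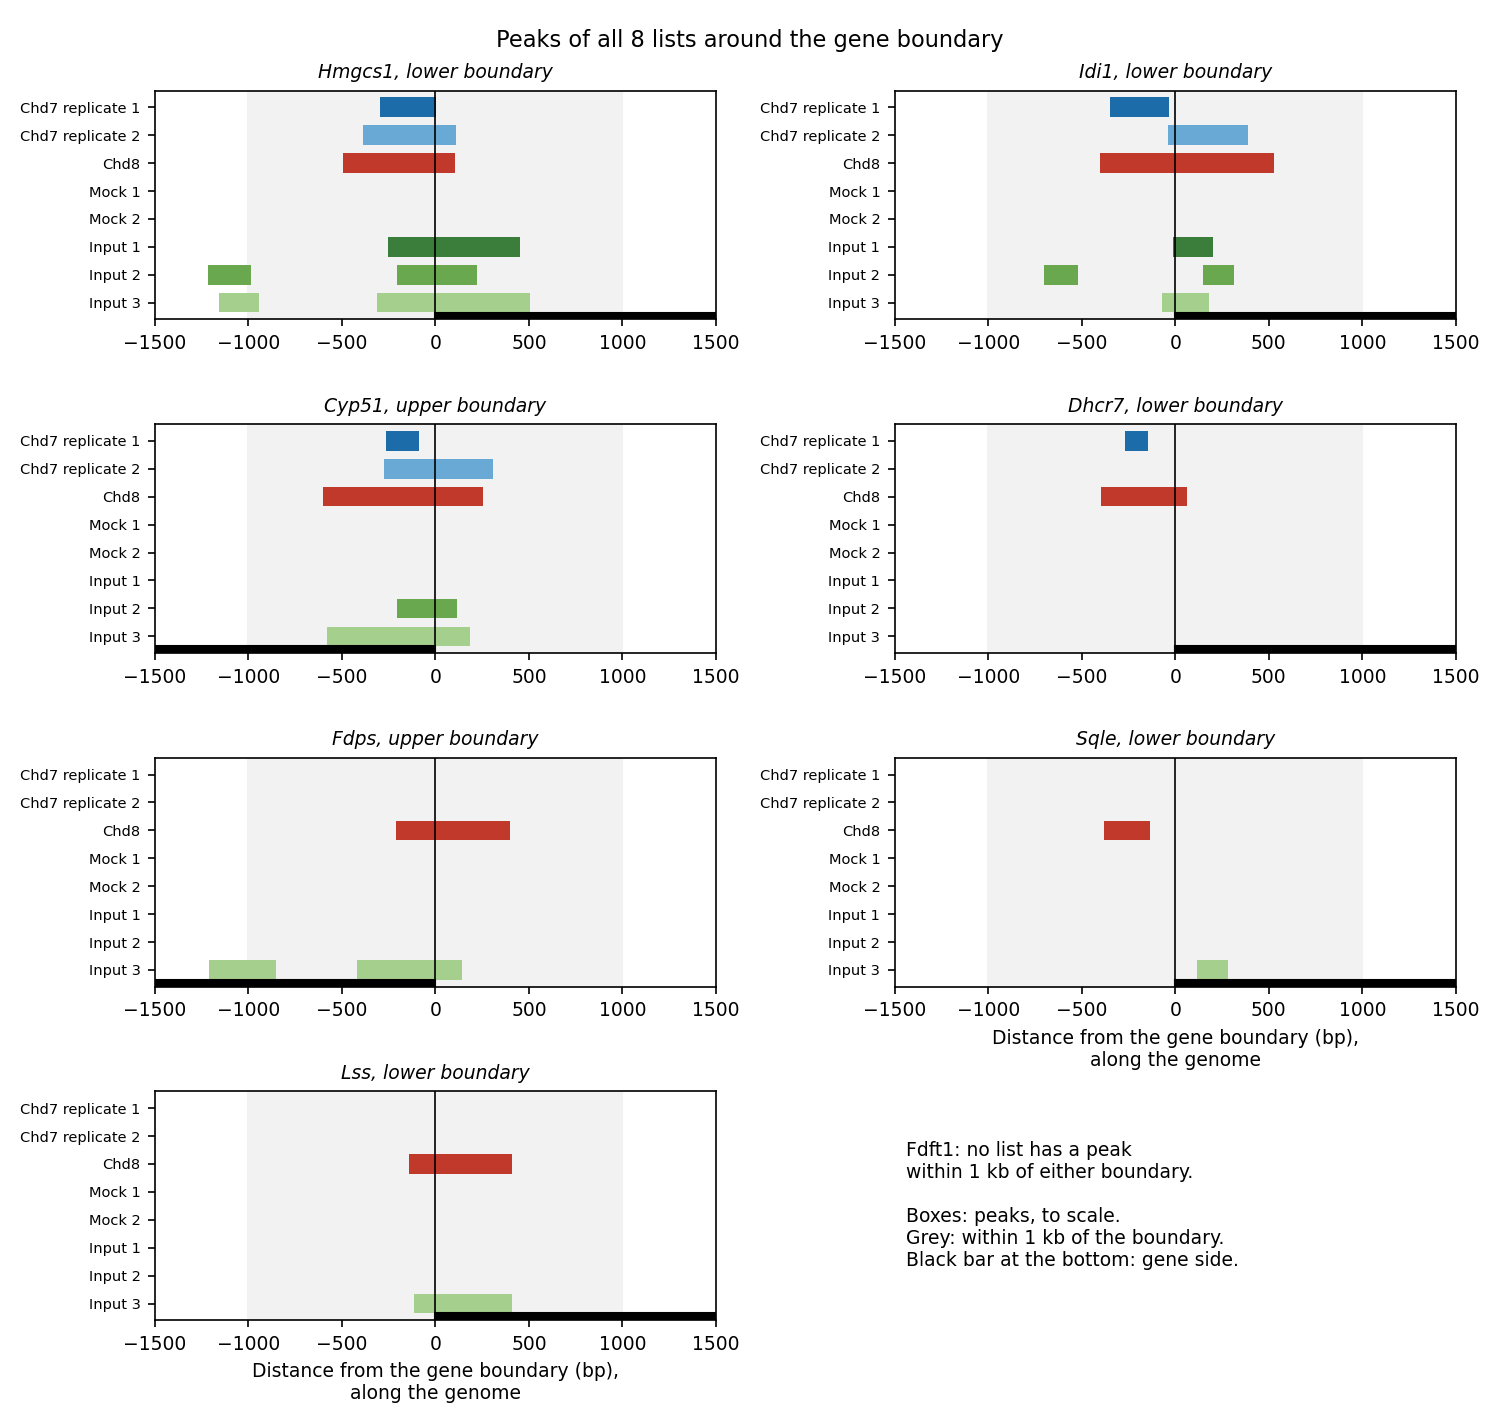
Peaks of the 8 lists (rows) around the occupied boundary of 7 genes, as distance in bp along the genome, with grey marking 1 kb on both sides and the black bar the side of the gene. Chd7 peaks of both libraries stand at Hmgcs1, Idi1 and Cyp51, Chd8 at all 7, and no input at Dhcr7.

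Hmgcs1 encodes the synthase that makes HMG-CoA, an intermediate on the way to mevalonate. The gene lies at chr13:119690351-119708260 on the plus strand. All 3 ChIP peaks covered its start: Chd7 replicate 1 had a fold of 4.65 (−log10 q 2.20), Chd7 replicate 2 had 3.50 (1.90) and Chd8 had 4.81 (3.29). Their midpoints stood at −146, −141 and −194 bp from the start, and the sterol element lay inside all of them. Inputs 1, 2 and 3 also had a peak over the start, with folds of 3.78, 3.82 and 3.54 and midpoints at 98, 10 and 98 bp. These input peaks were centred downstream of the ChIP peaks and also covered the element. Over all annotated starts, the median peak positions were −46, 32.5 and 28.5 bp for Chd7 replicates 1 and 2 and Chd8. For inputs 1, 2 and 3 they were 52.5, 74 and 110.5 bp, so that order was not particular to Hmgcs1. The Chd7 peaks shared 298 bp, all of the replicate 1 peak, and input 1 covered 86.2% of that peak. Hmgcs1 was thus occupied in 6 of 8 lists, every one but the mocks.

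Idi1 encodes the isomerase that interconverts the isoprenoid building blocks isopentenyl and dimethylallyl diphosphate. The gene lies at chr13:8885606-8892396 on the plus strand and had the highest Chd7 fold among the members in each library. Chd7 replicate 1 had a fold of 5.75 (−log10 q 4.13), rank 63 of the 1935 gene-end peaks of its list, and replicate 2 had 3.72 (2.20), rank 661 of 3208. The merged Chd7 region, chr13:8885256-8885995, was among the 1383 regions found in both libraries. The peaks of both libraries met at their edges: replicate 1 was centred at −193 bp and replicate 2 at 174 bp, and they shared 5 bp, an overlap as short as in 8 of the 1383 regions (0.578%). The median overlap was 200 bp. The libraries also differed over all their peaks at annotated starts, with median positions of −46 bp in replicate 1 (62.3% upstream) and 32.5 bp in replicate 2 (41.7% upstream). The Chd8 peak, with a fold of 5.46 (−log10 q 4.38), covered both Chd7 peaks over its 935 bp. Input 1 (fold 4.25), input 2 (3.50) and input 3 (4.44) each had a peak at 95, 232 and 55 bp, on the side of the replicate 2 peak. Inputs 1 and 2 covered none of the replicate 1 peak and input 3 covered 11.7% of it, whereas they covered 50%, 37.9% and 51.9% of the replicate 2 peak. Input 2 had another gene-end peak, of fold 3.62, centred at −611 bp.

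Cyp51 encodes lanosterol demethylase, an enzyme of the sterol steps of the pathway. The gene lies at chr5:4080674-4104697 on the minus strand and had the strongest Chd8 peak of the 8, with a fold of 8.90 and a −log10 q of 10.72 at chr5:4104094-4104951. That peak ranked 129 of 8638 Chd8 gene-end peaks, and the next member, Idi1, ranked 2030. Chd7 at the same start was weaker within its lists: replicate 1 had a fold of 4.15, where the lowest fold of that list is also 4.15, with a −log10 q of 1.48, and replicate 2 had 3.54 (1.96). In percentiles of its own list the peak stood at 99.1 for Chd8, 70.0 for Chd7 replicate 2 and 10.4 for Chd7 replicate 1. Tied folds were given their highest rank, so the 10.4 stands for a peak tied at the lowest fold of its list. Input 1 had no peak at this end, while inputs 2 and 3 had folds of 4.00 and 4.02, and the peak of input 3 covered 88.9% of the Chd8 peak. The CCAAT box at −29 to −25 lay in the peaks of Chd7 replicate 2, Chd8 and inputs 2 and 3. Inside the gene, where no ChIP list had a peak away from the start, inputs 1, 2 and 3 had 4, 4 and 5 peaks, among them peaks of up to 1623 bp.

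Dhcr7 encodes the sterol reductase that makes cholesterol from its dehydro precursor. The gene lies at chr7:143823167-143848410 on the plus strand and was the only member with a ChIP peak at an end where no input had one. Chd7 replicate 1 had a fold of 4.70 (−log10 q 2.27) centred at −206 bp, Chd8 had 4.29 (2.50) centred at −168 bp, and Chd7 replicate 2 and the 3 inputs had no peak there. Chd8 without any input peak at an end was found at 1466 genes, 6.7% of all. A further pair of peaks stood inside the gene, Chd7 replicate 1 with a fold of 4.56 (2.06) at chr7:143829530-143829731 and Chd8 with 4.60 (2.98) at chr7:143829516-143830275. RefSeq gives Dhcr7 another start at 143830214, which lay in that Chd8 peak, and the 250 bases before it held 3 GC boxes and 2 CCAAT boxes. No input peak touched any of these 4 peaks. The end of the neighbouring gene Nadsyn1, an NAD synthetase gene, lies 304 bp from Dhcr7, and the Chd7 replicate 1 and Chd8 peaks at the boundary counted for both genes. The Chd7 replicate 1 peak, chr7:143822899-143823023, lay nearer to the Nadsyn1 end at 143822862 than to the Dhcr7 boundary, 144 bp away. The Chd8 peak, chr7:143822771-143823228, covered both ends.

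Fdps, Sqle, Lss and Fdft1 had Chd8 peaks and no Chd7 peak at an end or in the body. Fdps makes farnesyl diphosphate, the branch point to prenylated proteins and sterols (chr3:89093588-89101967). Its Chd8 peak covered the upper boundary, the end with the higher coordinate, with a fold of 4.30 (−log10 q 2.52), and input 3, with a fold of 3.50, covered 58.2% of it. A second site lay outside the gene-end window, below the lower boundary and within the neighbouring Rusc1. Chd7 replicate 2 had a fold of 3.54 there, in a peak whose nearer edge was 2250 bp from the boundary. The Chd8 peak, of fold 4.45, had its nearer edge at 2108 bp. Input peaks covered 93.2% (input 2) and all (input 3) of that Chd8 peak. Lss, lanosterol synthase, closes the sterol rings (chr10:76531565-76557139, plus strand). Chd8 covered its start with a fold of 4.70 (3.10), and the peak of input 3, with a fold of 3.79, covered 95.3% of that peak. Sqle, squalene epoxidase, carries out an oxygen-dependent step that can limit flux (chr15:59315092-59331193). Its Chd8 peak, with a fold of 4.13 (2.25), the lowest of the 7, lay 137 bp outside the lower boundary, and the input 3 peak on the other side of that boundary, with a fold of 3.50, did not touch it. A second Chd8 peak, of fold 4.08, stood 8019 bp below the gene, and input 3 covered 50.2% of it. Fdft1, squalene synthase, commits farnesyl diphosphate to sterols (chr14:63145150-63181687). It had 1 Chd8 peak, of fold 4.52 (2.85), inside the gene and 3107 bp from the upper boundary, and peaks of input 3 covered 36.4% of it.

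**Figure D2:**
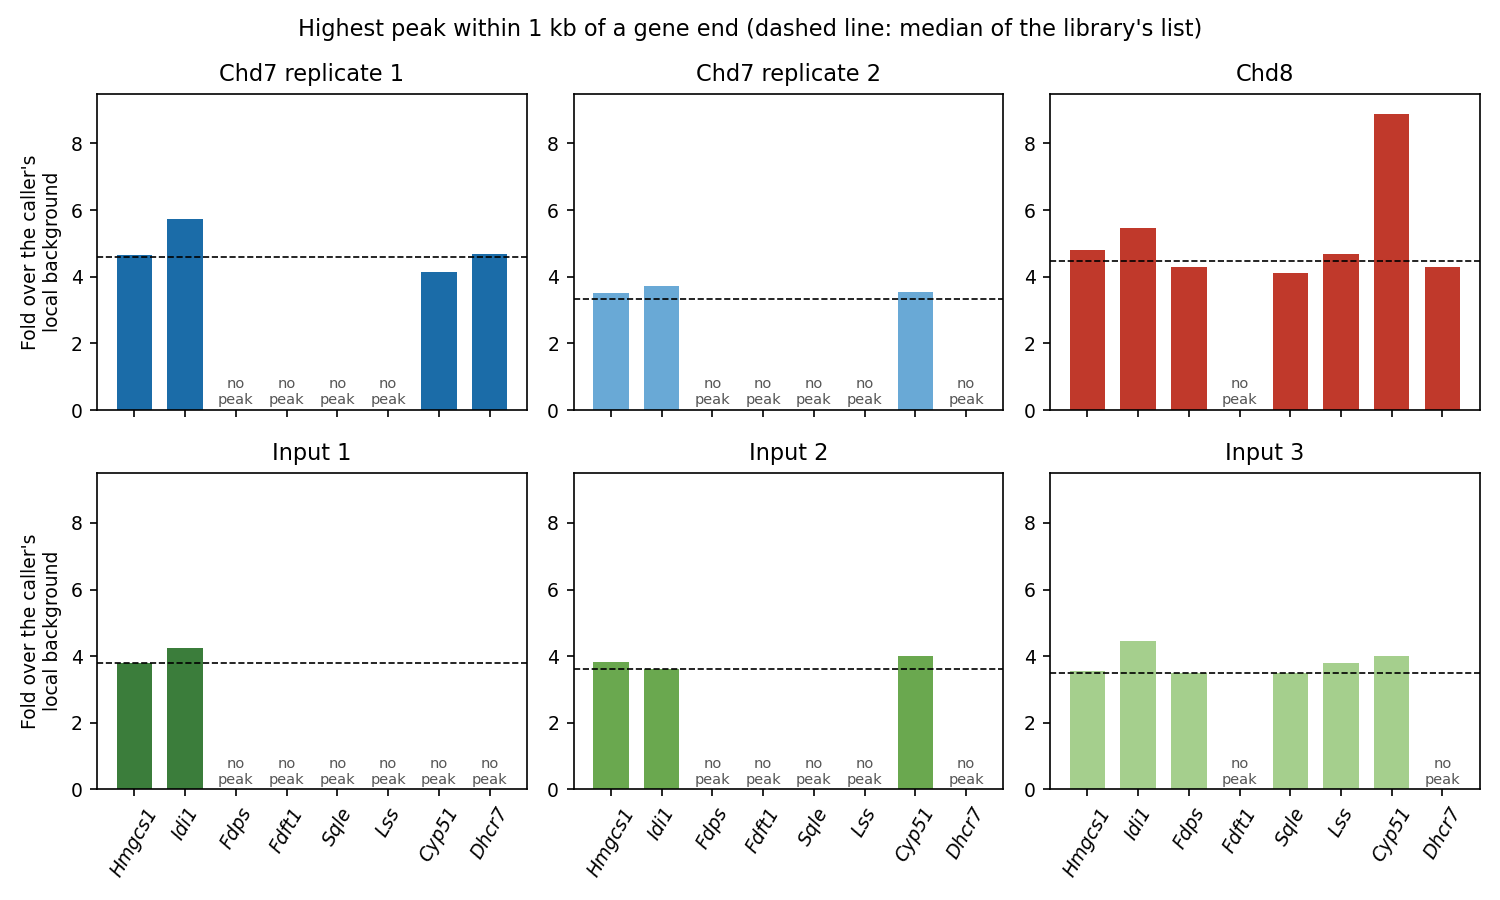
Fold over the caller's local background of the highest peak within 1 kb of a gene end, for 8 genes (x axis) in 6 libraries (panels), with a dashed line at the median of each list; the mocks had no such peak. Idi1 is highest in both Chd7 libraries (5.75 and 3.72) and Cyp51 in Chd8 (8.90).

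The order of the members by fold differed between the 3 ChIP lists, the Chd7 libraries included. In Chd7 replicate 1 it ran from Idi1 (5.75) through Dhcr7 (4.70) and Hmgcs1 (4.65) to Cyp51 (4.15), and in replicate 2 from Idi1 (3.72) through Cyp51 (3.54) to Hmgcs1 (3.50). For Chd8 it ran from Cyp51 (8.90) through Idi1 (5.46), Hmgcs1 (4.81), Lss (4.70), Fdps (4.30) and Dhcr7 (4.29) to Sqle (4.13). With 1 fold per gene and library, no spread can be set beside these differences, and the smallest were those between Dhcr7 and Hmgcs1 in replicate 1, between Cyp51 and Hmgcs1 in replicate 2, and between Fdps and Dhcr7 in Chd8. The median of the highest fold at an end was 4.68 over the 4 members with a Chd7 replicate 1 peak, beside 4.55 over all 2281 genes with one, 3.54 over 3 members beside 3.38 over 3717 genes for replicate 2, and 4.70 over 7 members beside 4.85 over 8966 genes for Chd8. Apart from Cyp51 in Chd8 and Idi1 in all 3 ChIP lists, the members' highest gene-end peaks stood between the 10.4 and 70.0 percentile of their ChIP lists. The 10.4 is that of Cyp51 in Chd7 replicate 1, tied at the lowest fold of that list.

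**Figure D3:**
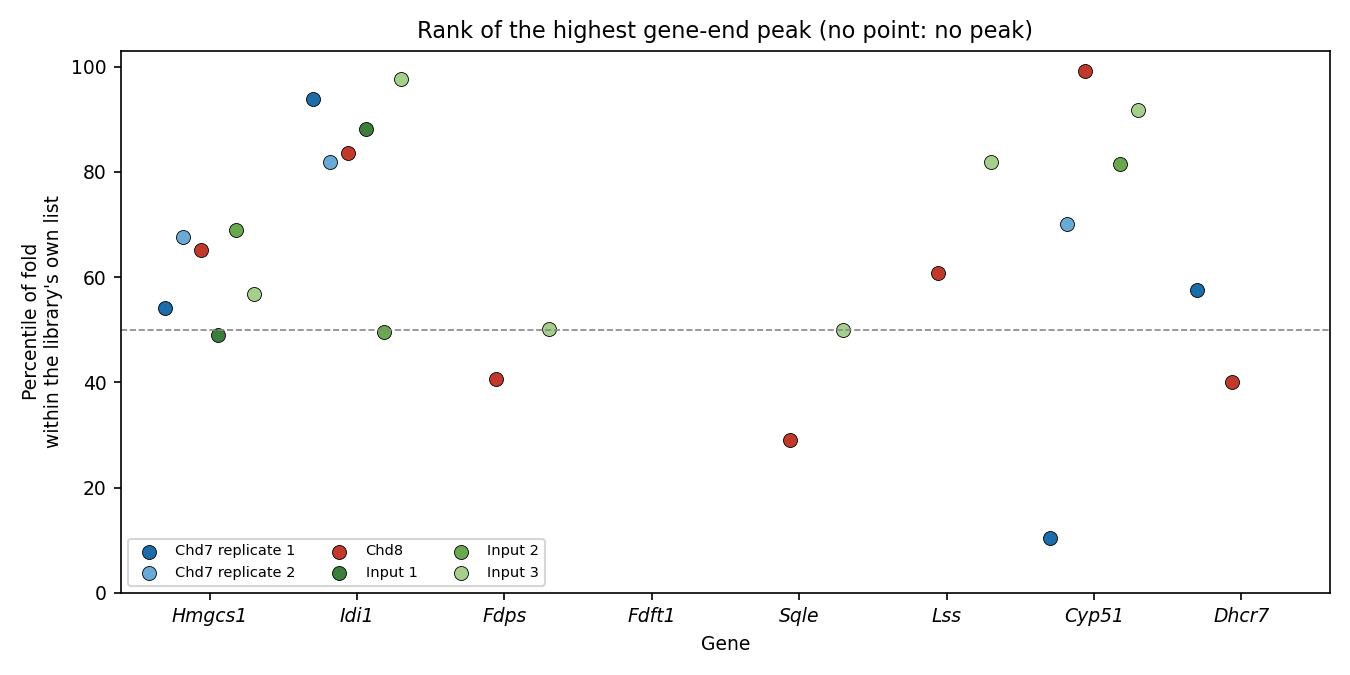
Percentile of the fold of the highest gene-end peak within its own library's list (y axis) for the 8 genes (x axis), with colours for the 6 libraries that had such peaks. Idi1 stands at 93.9 and 81.9 in Chd7 and Cyp51 at 99.1 in Chd8 but at 10.4 in Chd7 replicate 1, tied at the lowest fold of that list.

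Every Chd7 peak at a member's end was touched by Chd8, and most were also touched by an input. All 4 gene-end peaks of Chd7 replicate 1 and all 3 of replicate 2 met a Chd8 peak, as did 90.7% and 83.9% of all gene-end peaks of these lists. At least 1 input touched 3 of the 4 (69.5% of all), 3 of the 3 (81.0%) and 5 of the 7 Chd8 peaks (68.4%). Input 3 alone touched 3, 3 and 5 of them (61.2%, 71.9% and 59.4% of all). The 2 Chd8 peaks that no input touched were those of Sqle and Dhcr7. With peaks touched by the input that the labels assign removed, Chd7 in both libraries was left at 0 of the 8 ends (1.75% of all genes) and Chd8 at 2, Sqle and Dhcr7 (16.7% of all genes). With inputs 2 and 3 exchanged, Chd7 was left at 0 (0.758%) and Chd8 at 4, Fdps, Sqle, Lss and Dhcr7 (29.1%). With the inputs as titled, removal took all 3 gene-end peaks of Chd7 replicate 2 and, of replicate 1, that of Hmgcs1. The part of input signal in the other ChIP peaks was not tested.

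**Figure D4:**
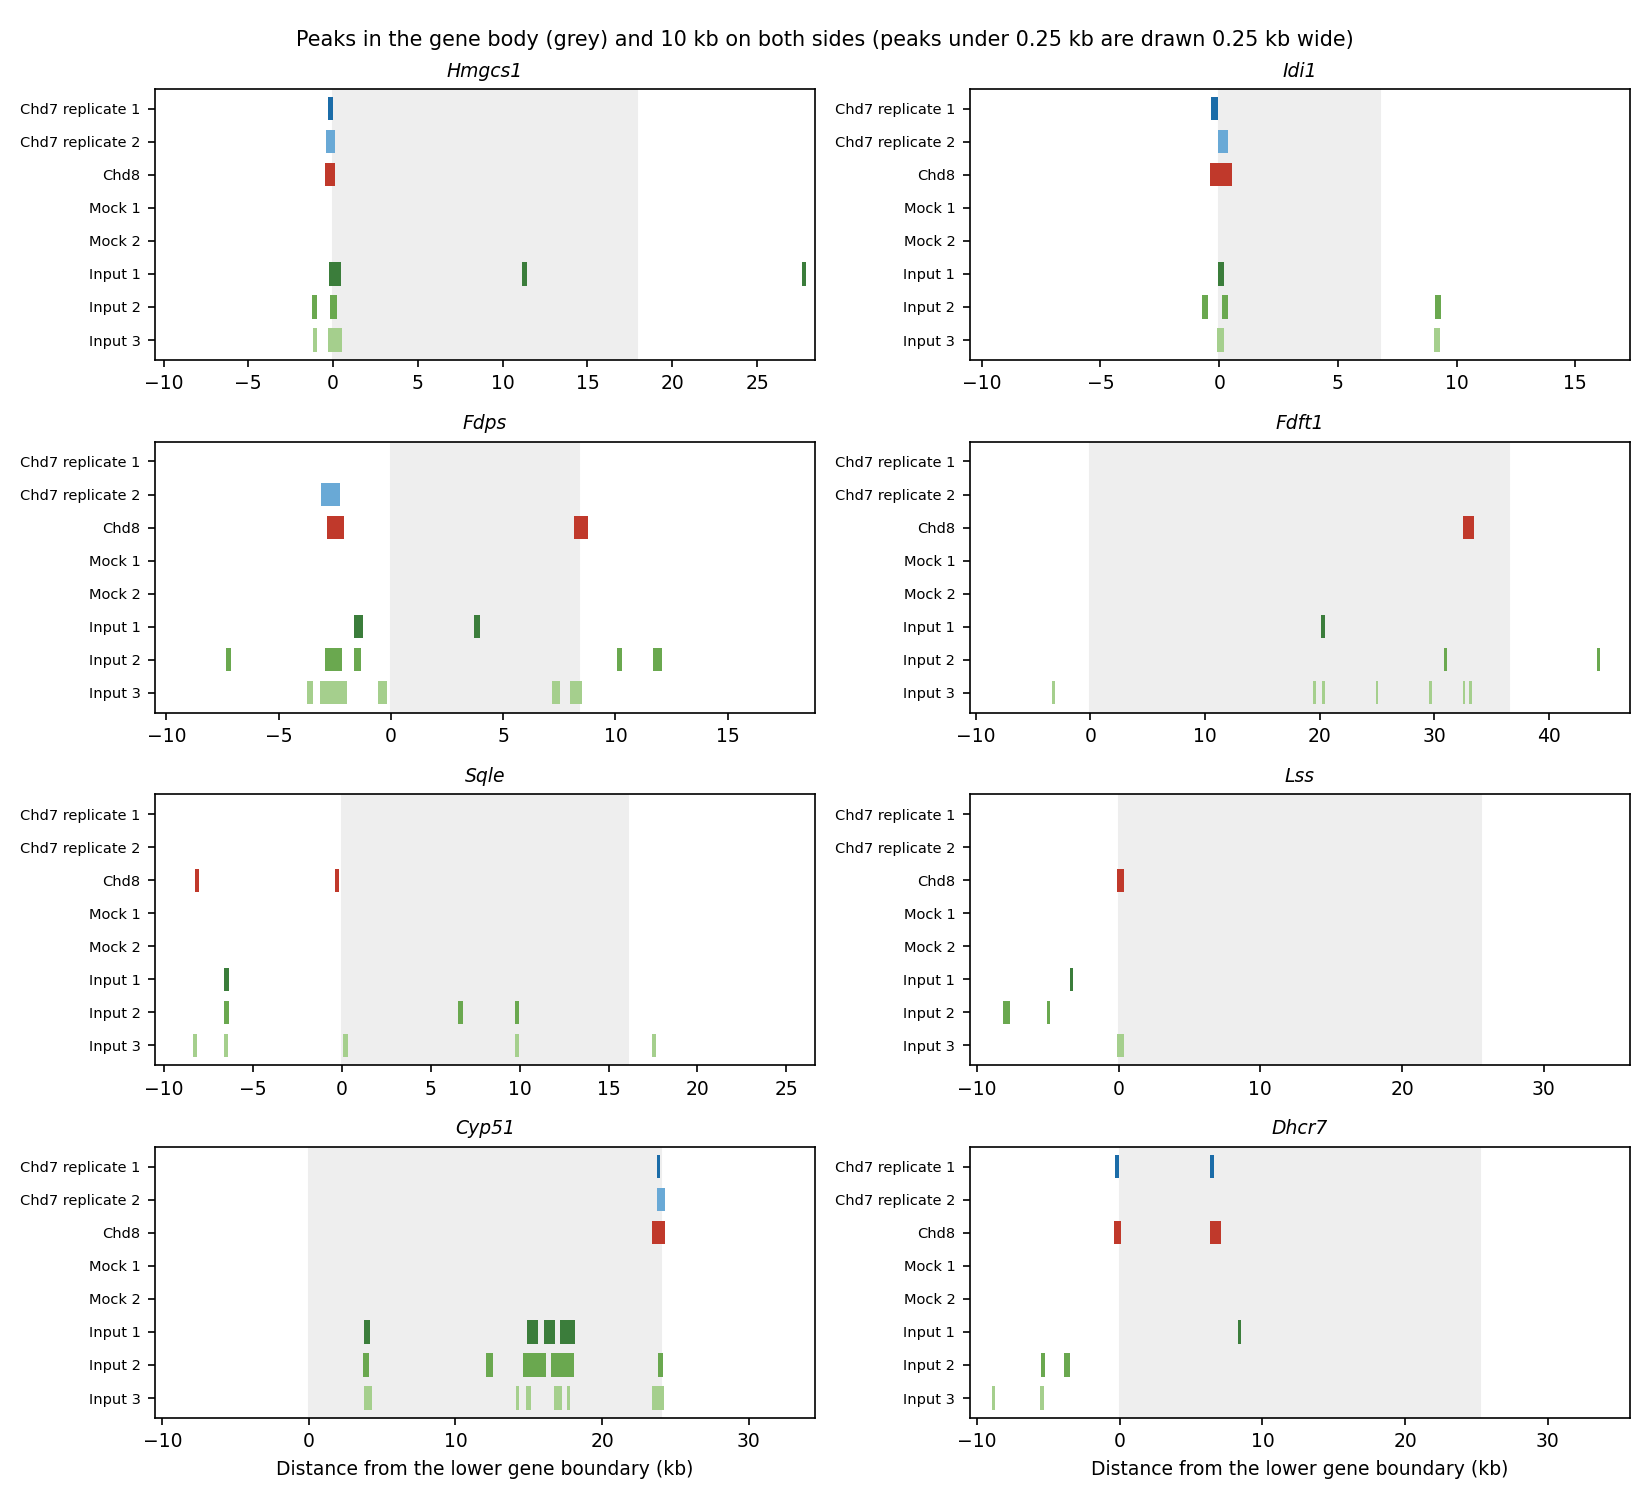
Peaks of the 8 lists (rows) in the body of each gene (grey) and within 10 kb on both sides, as distance in kb from the lower boundary. Of the ChIP peaks, 4 of 5, 3 of 4 and 7 of 11 (Chd7 replicates 1 and 2, Chd8) stand at gene ends, while the 3 inputs hold 14, 24 and 30 peaks that also fill the bodies and flanks. Whole lists differ between ChIP and input in the same direction.

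Over the wider loci of 26791 to 56538 bp, Chd8 reached 8 of 8 members (56.9% of all genes), Chd7 in both libraries 3 of 8 (8.45%), Chd7 replicates 1 and 2 alone 4 of 8 each (21.4% and 29.0%), the mocks 0 of 8 (0.151% and 0.142%) and each input 8 of 8 (70.0%, 81.9% and 77.9%). Chd7 replicate 1 had 5 peaks at the 8 loci, of which 4 were at gene ends, replicate 2 had 4 with 3 at ends, and Chd8 had 11 with 7 at ends. In inputs 1, 2 and 3, 2 of 14, 5 of 24 and 9 of 30 peaks were at ends. The whole lists, which include peaks far from any gene, also had more of their ChIP peaks than of their input peaks at gene ends. For Chd7 replicates 1 and 2 and Chd8 these were 1935 of 5218, 3208 of 6237 and 8638 of 18350 peaks. For inputs 1, 2 and 3 they were 4611 of 109486, 6413 of 178478 and 10892 of 91628. Moving from the gene-end window to the locus thus added no member for Chd7 in both libraries and added Fdft1 for Chd8. The gene-end peaks that came closest to missing the window were those of input 2 and input 3 upstream of Hmgcs1, 988 and 945 bp away, and the closest left outside was an input 1 peak 1244 bp from Fdps. Every ChIP gene-end peak of the members lay within 144 bp of the boundary.

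The rest of the pathway was read from a list of 21 enzymes, which includes the 8, and 8 regulators. Chd7 in both libraries stood at an end of 5 of the 21 enzymes, replicates 1 and 2 alone at 8 each, Chd8 at 16, and inputs 1, 2 and 3 at 9, 9 and 13. The shares of all genes were 4.83%, 10.4%, 17.0%, 41.0%, 21.9%, 28.4% and 45.2%, in that order. With peaks of the matching input removed, Chd7 in both libraries was left at 0 and Chd8 at 4 of the 21 (1.75% and 16.7% of all genes), and with inputs 2 and 3 exchanged at 0 and 9 (0.758% and 29.1%). By step, Chd7 in both libraries had 1 of 5 mevalonate, 1 of 3 isoprenoid, 0 of 3 squalene and 3 of 10 sterol enzymes, and Chd8 had 4, 3, 2 and 7 of them. Inputs 1 and 2 each had 3, 2, 0 and 4, and input 3 had 3, 3, 2 and 5. The other enzymes with Chd7 in both libraries were Msmo1, a sterol methyl oxidase (folds of 4.38 and 3.09 in replicates 1 and 2, Chd8 4.29), and Hsd17b7, a ketosteroid reductase (4.26, 3.78 and Chd8 5.29). Msmo1 had peaks of inputs 1 and 3 at its ends, and Hsd17b7 of input 1. Among the 21, Cyp51 had the highest Chd8 fold. Of the 8 regulators, Chd8 stood at 4 (41.0% of all genes) and Chd7 in both libraries at 0 (4.83%), with inputs 1, 2 and 3 at 3, 3 and 4 (21.9%, 28.4% and 45.2%), and the Chd8 and Chd7 counts are near the shares of all genes. Srebf2 had Chd8 (5.96) with all 3 inputs, and Srebf1, which encodes the relative of SREBP-2 that mainly drives fatty acid genes, had peaks of inputs 2 and 3 and no ChIP peak at an end.

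**Figure D5:**
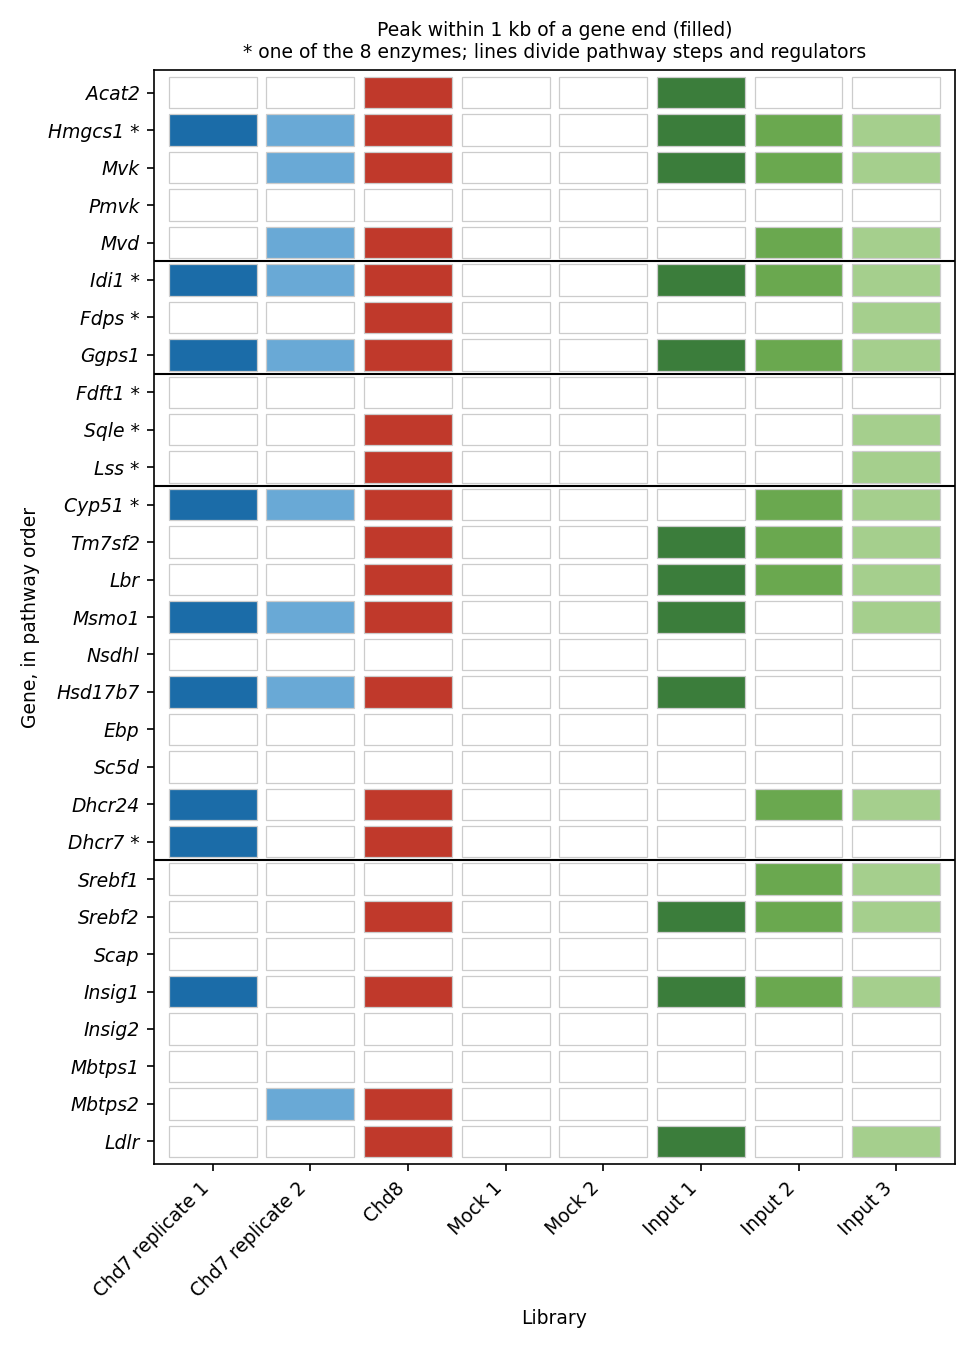
Filled cells mark a peak within 1 kb of a gene end for 21 enzymes and 8 regulators (rows, in pathway order) in 8 libraries (columns), with asterisks at the 8 enzymes. Chd8 fills 16 enzyme rows and 4 regulator rows, the mocks none, and Hmgcs1, Idi1 and Ggps1 are filled in all 6 other libraries.

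As a measure of likeness, each gene was given the percentile of its highest gene-end peak in each of the 8 lists, with 0 for no peak. The median profile of the members was 5.22 for Chd7 replicate 1, 50.6 for Chd8, 53.5 for input 3 and 0 in the other lists. Nearest to it by Euclidean distance were Fosl1 (5.82), an AP-1 subunit gene, Scd1 (6.05), the desaturase of fatty acid synthesis, Mpp2 (6.20), Bend3 (6.38) and Nup98 (6.51), a nuclear pore gene, all with Chd8 and input 3 peaks and no Chd7. Fdps was the member closest to the median (11.8), with 43 other genes nearer, and Idi1 was the farthest (167), with 21848 nearer. The counts were 246 for Sqle, 503 for Lss, 7119 for Fdft1, 15803 for Dhcr7, 20647 for Hmgcs1 and 20913 for Cyp51. The median profile, and the genes nearest to it, thus stand far from the members with Chd7 peaks at an end.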

How the data were processed

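ChIP-seq peak lists of 8 libraries were used, 1 list per library, grouped by their titles. Per the submitters' processing notes, the authors used Bowtie2, SAMtools, Picard and MACS on mm10; their versions, settings and control libraries are not stated there. The deposited columns hold a score (10 times the −log10 q), a fold over local background (a ratio), and a −log10 p and −log10 q for each peak, as the authors' caller gave them. Only fold and −log10 q were used. The extraction notes name the O4 antibody for isolating the complexes, and the antibody labels of each sample were used instead. The track lines number Chd7 replicate 2 as 3 and Chd8 as 2, unlike the titles, so inputs 2 and 3 were also exchanged as an alternative.

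ChIP peaks touching a mock peak by 1 bp were removed (64, 55 and 65 peaks). Gene boundaries came from a RefSeq table of GRCm38.p6, which has the coordinates of mm10. Overlaps were computed in Python 3.11.15 with pandas 2.3.3 by code tested on simulated peaks. No test was run, since the values are peak calls of 1 or 2 libraries. Depth is unknown, so no interval is given. The 8 genes and the gene lists were chosen with earlier results of these data known. Named were the 8 genes, pathway genes with Chd7 in both libraries, Srebf1, Srebf2, neighbours sharing a gene-end peak and the 5 nearest profiles; 1 listed enzyme is not reported here. Alternatives were windows of 500 bp and 5 kb, flanks of 5 kb, a −log10 q of at least 3, mock-touching peaks kept, input peaks removed, a reciprocal overlap of 50% and each Chd7 library alone.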

Additional observations from a re-analysis of the deposited data

How the results depend on the processing

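Of 46 alternatives over 7 counts, 22 stayed within 1.5 times the reported count, among them every change of window or flank, mock-touching peaks kept, and, for the members, each Chd7 library alone. The mocks had no peak at the ends or loci of the 21 enzymes. Keeping mock-touching peaks could therefore hardly change a count, and its result is no sign of stability. Without Chd7 replicate 1 or 2, the members with Chd7 numbered 3 to 4 at an end and 4 at the locus, and the pathway enzymes 8 in both cases, against 5. With a −log10 q of at least 3, Chd7 in both libraries was left at 0 members, at the end or the locus, and 0 enzymes. Chd8 was left at 4 members at an end, 4 at the locus and 10 enzymes. The inputs were left at 0 members at an end, with no share of all genes computed for them. With peaks of the matching input removed, Chd7 was left at 0, 0 and 0, and Chd8 at 2 members at an end (Sqle and Dhcr7), 2 at the locus and 4 enzymes. With inputs 2 and 3 exchanged, Chd7 was again at 0, 0 and 0, and Chd8 at 4 (Fdps, Sqle, Lss and Dhcr7), 5 and 9. A reciprocal overlap of 50% left Chd7 at 1 member at an end, 1 at the locus and 1 enzyme, Hmgcs1 in each case. All genes under these settings had Chd7 at an end in 0.0685% (−log10 q), 1.75% (input removed), 0.758% (inputs exchanged) and 1.72% (reciprocal overlap), and Chd8 in 24.7%, 16.7% and 29.1% under the first 3. At the locus the shares were 0.192%, 3.7%, 1.97% and 3.37% for Chd7 and 37.5%, 34.0% and 47.1% for Chd8. The cause was not tested. No paired analysis was possible because the counts come from peak lists and no test.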

Other observations

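Insig2, which encodes a retention protein of the sterol sensor complex, was the only pathway regulator with Chd7 in both libraries at its locus. It had no gene-end peak in any list, and Chd8 and input 3 also had a peak at the locus, while inputs 1 and 2 had none. Insig1, its relative, had Chd7 replicate 1 (fold 4.93) and Chd8 (4.69) at an end, with all 3 inputs. Mbtps2, a protease that releases SREBP, had Chd7 replicate 2 (3.19) and Chd8 (4.14) at an end where no input had a peak. Ggps1, which makes geranylgeranyl diphosphate, had a peak of each Chd7 library at an end (4.23 and 3.26), but no region found in both. Insig1, Insig2, Mbtps2 and Ggps1 were chosen after their values were seen.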
